A study of Mus musculus with 8 samples.

Results

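The pyruvate dehydrogenase complex and the genes that control it were followed in cultured mouse CD8+ T cells that carried a guide against Elovl1 (sgElovl1) or a non-targeting guide (sgNT). The group holds 10 genes, taken by symbol from the 56805 genes of the deposited table: Pdha1, Pdhb, Dlat and Dld (the catalytic subunits), Pdk1 and Pdk3 (kinases), Pdp1 and Pdpr (the phosphatase), and Mpc1 and Mpc2 (the carrier of pyruvate). All 10 were found and all 10 passed the filter on low counts. The genes were selected on their role, with the sgElovl1 and sgNT levels and fold changes of these same columns in view, so their values are given as a description. "Past the threshold" says where a value stood in the edgeR fit over all genes (adjusted p below 0.05) and is used as support for nothing.

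The cells were OT-I T cells, whose transgenic receptor sees a peptide of ovalbumin, from Rag2-deficient OT-I mice crossed to Rosa26-Cas9 mice on a C57BL/6J background, of either sex and, for donors of T cells, 6 to 10 weeks old. In both groups they were activated in vitro with CD3/CD28 beads, grown with IL-2, IL-7 and IL-15 in a medium that contained sodium pyruvate, transduced with a lentiviral vector that carries the guide and a CD90.1 reporter, and sorted on CD90.1 at 3 days after transduction. The sorted cells of both groups, sgNT included, therefore carried Cas9 and the vector, and by design the groups differed in the guide alone. The 8 labelled samples (2 mice for each guide in each of 2 experiments) were deposited as 4 columns, each the authors' sum of 2 mice, so the spread between mice could not be seen and an experiment gave 1 sgElovl1 and 1 sgNT column.

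Pyruvate made by glycolysis enters mitochondria through a carrier in the inner membrane, which Mpc1 and Mpc2 build together. Inside, the complex turns it into acetyl-CoA in an irreversible step: Pdha1 and Pdhb form the thiamine-dependent decarboxylase, Dlat hands the acetyl group from its lipoyl arms to coenzyme A, and Dld re-oxidises those arms. Kinases (Pdk1 to Pdk4) phosphorylate Pdha1 and switch the complex off, and a phosphatase, with Pdp1 as a catalytic and Pdpr as a regulatory subunit, switches it on again. Activated T cells are known for sending much of their pyruvate to lactate, and Pdk1 is a textbook target of the hypoxia factor HIF-1. The study followed the use of glucose carbon in cultured sgElovl1 and sgNT OT-I T cells, which is the question that RNA of this step bears on. Its methods describe nucleofected, peptide-activated cells for in vitro assays, so the tracing may not have used the preparation sequenced here.

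Promoters are shown for 3 genes, the pair past the threshold between the guides (Pdpr and Dlat) and Pdk1, the kinase with the highest CPM. Each runs from 250 bases before to 50 after a RefSeq start on GRCm38.p6, while the authors counted on GRCm39, and is written 5′ to 3′ along the gene with HIF cores (ACGTG or GCGTG, on either strand) in capitals.
Pdk1, chr2:71872974-71873273, plus strand: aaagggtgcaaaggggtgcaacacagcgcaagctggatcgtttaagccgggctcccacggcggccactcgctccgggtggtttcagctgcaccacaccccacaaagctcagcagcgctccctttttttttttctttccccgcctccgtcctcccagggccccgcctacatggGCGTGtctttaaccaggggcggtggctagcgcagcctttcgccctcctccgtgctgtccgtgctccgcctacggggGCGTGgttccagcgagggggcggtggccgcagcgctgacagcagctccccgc
Pdpr, chr8:111094495-111094794, plus strand: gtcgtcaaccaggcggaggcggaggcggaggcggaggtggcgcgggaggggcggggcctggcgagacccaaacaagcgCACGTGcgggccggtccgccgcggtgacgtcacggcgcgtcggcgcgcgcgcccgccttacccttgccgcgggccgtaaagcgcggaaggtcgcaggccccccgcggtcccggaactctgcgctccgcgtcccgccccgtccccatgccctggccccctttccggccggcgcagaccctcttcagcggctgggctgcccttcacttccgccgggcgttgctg
Dlat, chr9:50659731-50660030, minus strand: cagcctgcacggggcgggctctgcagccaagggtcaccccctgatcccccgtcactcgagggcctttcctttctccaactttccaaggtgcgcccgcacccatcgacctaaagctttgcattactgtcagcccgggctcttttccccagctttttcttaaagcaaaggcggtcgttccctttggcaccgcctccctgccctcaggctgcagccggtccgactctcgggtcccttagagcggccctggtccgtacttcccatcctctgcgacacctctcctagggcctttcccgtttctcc
Pdk1 held GCGTG at positions -78 and -2, the first base of a match counted from the start at 0. In Pdpr the matches at -172 and -171 are both part of a single E-box, CACGTG, the palindrome that Myc and related factors bind. Dlat held no HIF core in this window. Of the 10 genes 9 had a RefSeq promoter in the table used, Pdp1 being the exception, and Pdk1 and Mpc1 each had a second promoter, with no HIF core. A HIF core was in 7 of these 11 promoters, against 43.8% of 32851 mouse promoters of the same length. CACGTG was in 1 of 11 against 7.15% of promoters. GC content was 66.0% for the Pdk1 promoter shown, 76.7% for Pdpr and 62.0% for Dlat, against a median of 52.7% over all promoters. A match describes letters, not a bound factor.

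Levels between genes were compared as CPM (counts over the TMM-adjusted size of their library) per kilobase of merged exons, with the 4 columns as the spread. Pdha1 stood highest at a mean of 32.5 CPM per kb, and Pdhb followed at 21.8. Pdk1 (15.0), Dld (14.4) and Pdk3 (12.99) came next, and their columns overlapped (12.5 to 18.7 for Pdk1, 11.6 to 17.3 for Dld, 7.16 to 19.6 for Pdk3). Mpc1 had 8.85, Dlat 5.41 and Mpc2 4.22 CPM per kb. Columns of Pdhb and Pdk3, of Pdk3 and Mpc1, of Pdk3 and Dlat, of Mpc1 and Dlat, and of Dlat and Mpc2 overlapped too. Those of Pdha1 and Pdhb, of Pdhb and Pdk1, and of Mpc2 and Pdp1 did not. Both phosphatase genes were lowest, Pdp1 at 1.30 and Pdpr at 1.26, and their columns also overlapped. Both kinases of the group stood above both of its phosphatase genes in every column on this scale, on which Pdp2 and Pdk2 were not placed. Exon lengths were those of GENCODE M21, counts took in introns, and the Mpc2 model overlaps another gene model on its strand, so this order is approximate.

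**Figure D1:**
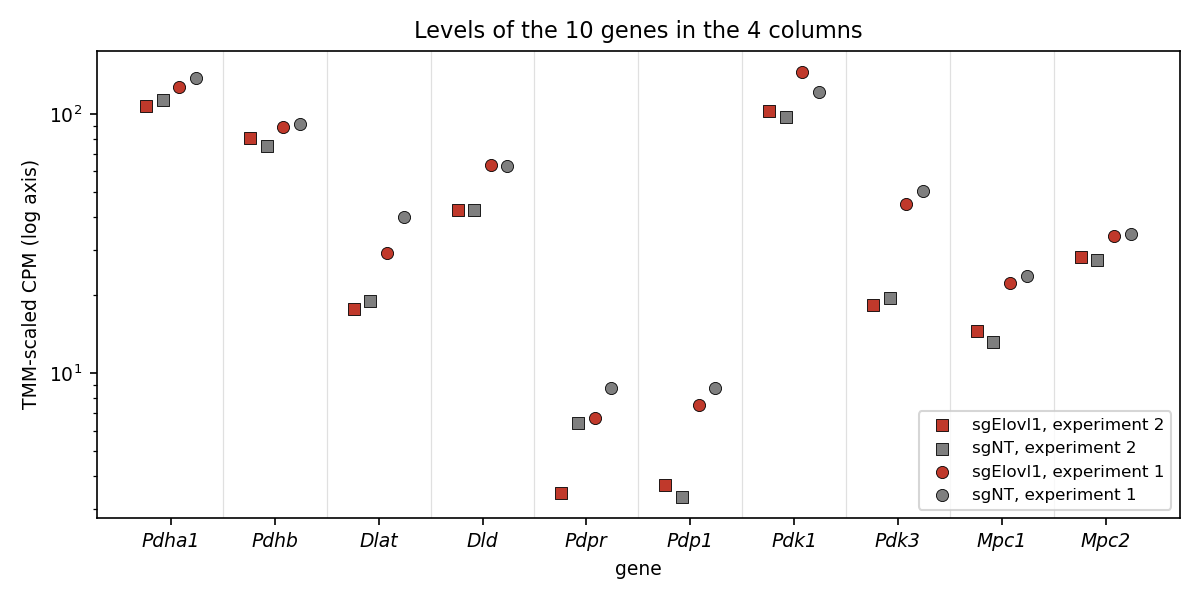
TMM-scaled CPM (log axis) of the 10 genes in the 4 columns, sgElovl1 in red and sgNT in grey, experiment 2 as squares and experiment 1 as circles. For each gene both squares lie below both circles, whereas red and grey overlap.

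Before the members, the guide was checked. Elovl1, the target, had 55.8 CPM in sgElovl1 cells against 93.5 CPM in sgNT cells in experiment 2, and 61.3 against 110.5 CPM in experiment 1, a log2 fold change of -0.80 ± 0.07 (SE). The 6 markers of CD8 T cells were at 421 to 1354 CPM in every column, while summed markers of B, NK and erythroid cells were at most 1.79 CPM. Of the CD4 T cell pair, Cd4 was at most 0.114 CPM and Zbtb7b at 25.4 to 26.9 CPM. Column totals were 49068952 to 63623476 counts, and the first principal component, with 73.9% of the variance, separated the experiments. Mitochondrial transcripts took 14.3% of counts in sgElovl1 against 10.2% in sgNT cells in experiment 2 and 9.72% against 7.72% in experiment 1. In bulk RNA, fewer cells of a type and less RNA per cell cannot be told apart.

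Between the guides, the phosphatase genes were where the largest difference lay. Pdpr had 3.45 CPM in sgElovl1 cells against 6.45 CPM in sgNT cells in experiment 2 (191 and 322 counts), and 6.69 against 8.78 CPM in experiment 1 (352 and 556 counts). It was lower with sgElovl1 in both experiments, yet the groups overlapped, since the sgElovl1 column of experiment 1 lay above the sgNT column of experiment 2. The fit put it at -0.63 ± 0.17 on the log2 scale (SE; edgeR gave an adjusted p of 0.0215), or 64.5% of the sgNT level. Within experiments it was -0.90 with a 95% counting interval of -1.17 to -0.64 in experiment 2, and -0.39 (-0.59 to -0.20) in experiment 1. These exact binomial intervals cover counting error only, not mice.

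Pdp1, a catalytic subunit, did not share this pattern. It had 3.70 CPM in sgElovl1 cells against 3.34 CPM in sgNT cells in experiment 2, and 7.56 against 8.75 CPM in experiment 1. The fitted log2 fold change was -0.05 ± 0.18 (SE), with 0.14 in experiment 2 and -0.21 in experiment 1, so the sign differed between experiments. The ratio of Pdpr to Pdp1 within a column was 0.932 in sgElovl1 against 1.92 in sgNT cells in experiment 2, and 0.885 against 1.00 in experiment 1. In 3 of the 4 columns the ratio thus lay near 1, and the sgNT column of experiment 2 stood apart.

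Pdp2, which encodes the other catalytic phosphatase subunit and is no member, leaned the way of Pdpr. It had 14.2 CPM in sgElovl1 cells against 16.6 CPM in sgNT cells in experiment 2, and 16.4 against 21.1 CPM in experiment 1. Both sgElovl1 columns lay below both sgNT columns, which 6.85% of genes tested had. The gap was small, between 16.4 CPM (sgElovl1, experiment 1) and 16.6 CPM (sgNT, experiment 2). At a log2 fold change of -0.30 ± 0.10 (SE), Pdp2 missed the threshold (adjusted p = 0.135 in edgeR).

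Among the catalytic subunits, Dlat stood out. It had 17.7 CPM in sgElovl1 cells against 19.1 CPM in sgNT cells in experiment 2, and 29.1 against 39.9 CPM in experiment 1. The difference between guides was thus mostly in experiment 1, where the log2 fold change was -0.46 (counting interval -0.55 to -0.37), against -0.11 (-0.24 to 0.02) in experiment 2. The fit gave -0.29 ± 0.08 (SE; adjusted p = 0.0462 in edgeR), just inside the threshold. With mitochondrial and the most abundant genes left out before scaling the adjusted p of Dlat was 0.0824, within a range of 0.0276 (limma-voom) to 1.00 (no experiment term, or a column left out) over the alternatives. The part of the mitochondrial share in this value was not tested in any other way.

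The remaining catalytic subunits lay within 0.10 of 0 on the log2 scale. Pdha1, the subunit that the kinases phosphorylate, had 107 CPM in sgElovl1 cells against 114 CPM in sgNT cells in experiment 2, and 127 against 137 CPM in experiment 1 (fitted log2 fold change -0.10 ± 0.06, SE). Pdhb, its partner in the decarboxylase, had 81.1 against 75.2 CPM in experiment 2 and 89.4 against 91.2 CPM in experiment 1 (0.04 ± 0.07). Dld, which also serves the 2-oxoglutarate, branched-chain and glycine enzymes, had 42.8 against 42.7 CPM and 63.5 against 63.1 CPM (0.01 ± 0.07). Dld gave the closest match between guides in both experiments. Summed over the 4 subunits, sgElovl1 columns held 99.3% of the sgNT level in experiment 2 and 93.3% in experiment 1.

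The kinases went in unlike directions. Pdk1 had 102 CPM in sgElovl1 cells against 97.4 CPM in sgNT cells in experiment 2, and 145 against 121 CPM in experiment 1. It was the only member besides Dld whose sgElovl1 level was above sgNT in both experiments, and its fitted log2 difference of 0.17 ± 0.06 (SE) missed the threshold (adjusted p = 0.244 in edgeR). Pdk3, whose gene lies on the X chromosome as Pdha1 does, had 18.3 against 19.4 CPM in experiment 2 and 45.0 against 50.3 CPM in experiment 1 (-0.13 ± 0.08). The ratio of Pdk1 to Pdk3 was accordingly 5.57 in sgElovl1 against 5.003 in sgNT cells in experiment 2, and 3.23 against 2.41 in experiment 1. The ratio of Pdk1 to Pdp1 was 27.4 against 28.8 in experiment 2 and 19.1 against 13.8 in experiment 1, so its direction differed between experiments. Pdp2, the other catalytic phosphatase subunit, had a mean of 17.1 CPM against 5.84 CPM for Pdp1, and no ratio to Pdp2 was taken.

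The carrier did not differ beyond its error. Mpc1 had 14.6 CPM in sgElovl1 cells against 13.2 CPM in sgNT cells in experiment 2, and 22.2 against 23.7 CPM in experiment 1 (log2 fold change 0.02 ± 0.10, SE). Mpc2 had 28.0 against 27.3 CPM and 33.9 against 34.6 CPM (0.00 ± 0.08). Each changed sign between experiments.

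**Figure D2:**
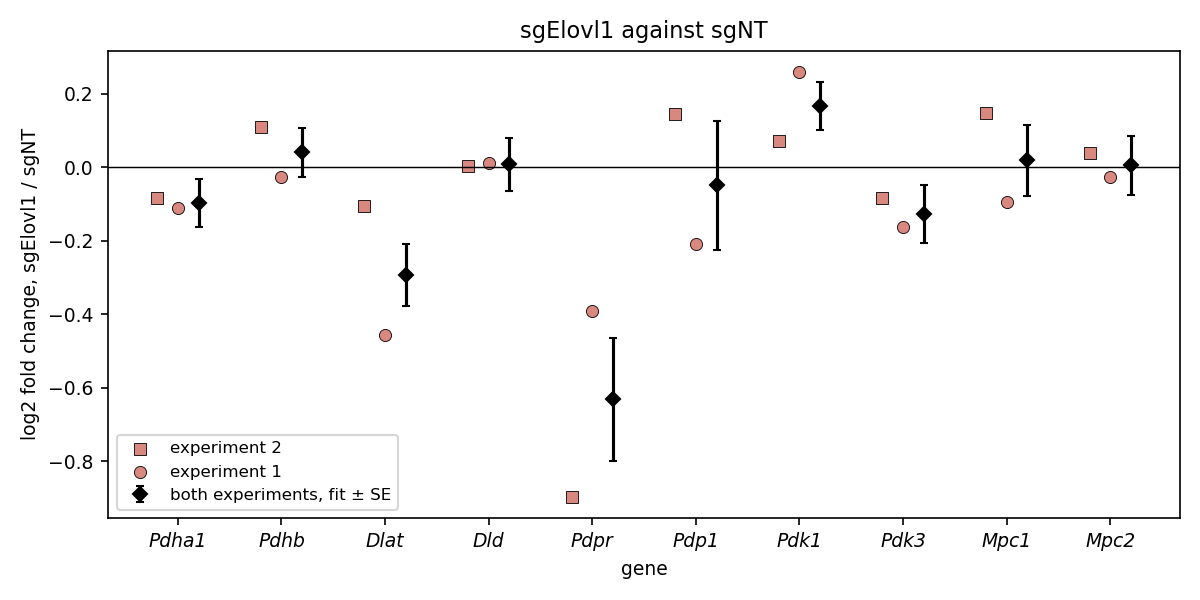
Log2 fold change of sgElovl1 against sgNT for the 10 genes, within experiment 2 (squares), within experiment 1 (circles) and in the fit over both (diamonds, ± SE). Pdpr at -0.63 and Dlat at -0.29 lie lowest, and Pdk1 at 0.17 highest.

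Over the 10 genes, 2 were past the threshold and lower (Pdpr and Dlat) and 0 were higher, where 0.437% of the 16006 genes tested were called lower, 0.762% higher and 1.2% either way. Nothing is read from that count, because the list was drawn up with this contrast known. Within experiments, 4 of the 10 were below 0 in both, which 30.1% of genes tested were. The median log2 fold change was -0.02, against -0.01 over all genes tested. No member had both sgElovl1 columns below both sgNT columns, which 6.85% of genes tested had, or above them, which 5.77% had. DESeq2 called none of the 10 (Wald test, 2 at an unadjusted p below 0.05), and none passed the threshold in any fit that left out a column.

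The fitted difference between the experiments was larger in size than that between the guides for all 10 genes. For Pdpr the gap was smallest and within the error (-0.69 ± 0.17 against -0.63 ± 0.17, SE). All 10 genes had less RNA in experiment 2 than in experiment 1, with both columns of experiment 2 below both of experiment 1, an arrangement found in 38.4% of genes tested (37.4% had the opposite one). All 10 were past the threshold, where 29.2% of genes tested were called lower, 26.4% higher and 55.6% either way. Each of the 10 averaged more than 5 CPM. Of the 9756 genes at 5 CPM or more, 4012 were called lower and 3143 higher, 73.3% either way. The median log2 difference was -0.63, against 0.00 over all genes tested and -0.07 over the 9756 genes averaging 5 CPM or more. The labels give the experiments a number and nothing else, so mice, culture and handling cannot be told apart in this difference.

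The kinase Pdk3 had the largest difference. It stood at 18.3 and 19.4 CPM in experiment 2 (sgElovl1 and sgNT) against 45.0 and 50.3 CPM in experiment 1, a log2 difference of -1.33 ± 0.08 (SE), or 39.7% of the experiment 1 level. The phosphatase subunit Pdp1 was next, at 3.70 and 3.34 CPM against 7.56 and 8.75 CPM (-1.21 ± 0.18). Dlat followed at -0.89 ± 0.09. The RNAs lowest against experiment 1 thus encode a kinase, a subunit of the opposing phosphatase and the lipoyl-bearing subunit.

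The other differences were graded. Mpc1 stood at -0.73 ± 0.10 (log2, SE), Pdpr at -0.69 ± 0.17, Dld at -0.57 ± 0.07, Pdk1 at -0.41 ± 0.06, Mpc2 at -0.31 ± 0.08, Pdha1 at -0.26 ± 0.06 and Pdhb at -0.21 ± 0.07. Protein partners were thus close for the decarboxylase (Pdha1 83.6% and Pdhb 86.5% of experiment 1) and less so for the carrier (Mpc1 60.4% and Mpc2 80.8%). Pdk1 differed less than Pdk3, and the ratio of Pdk1 to Pdk3 was higher in experiment 2 in both groups. Pdhb was the least stable call, lost with upper-quartile factors (adjusted p = 0.0863), in both DESeq2 tests (0.0635 and 0.0610) and without any of the sgNT column of experiment 1 (0.0629), the sgElovl1 column of experiment 2 (0.0576) or the sgNT column of experiment 2 (0.382), over a range of 0.00279 to 0.382. Pdha1 lost its call without the sgElovl1 column of experiment 2 (0.124) and Mpc2 without the sgNT column of experiment 2 (0.0728), in edgeR. Without the sgElovl1 column of experiment 2, Pdpr was at -0.27 and no longer past the threshold (adjusted p = 0.391 in edgeR), the highest over its alternatives, of which the others lay between 3.74e-06 and 0.0354.

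**Figure D3:**
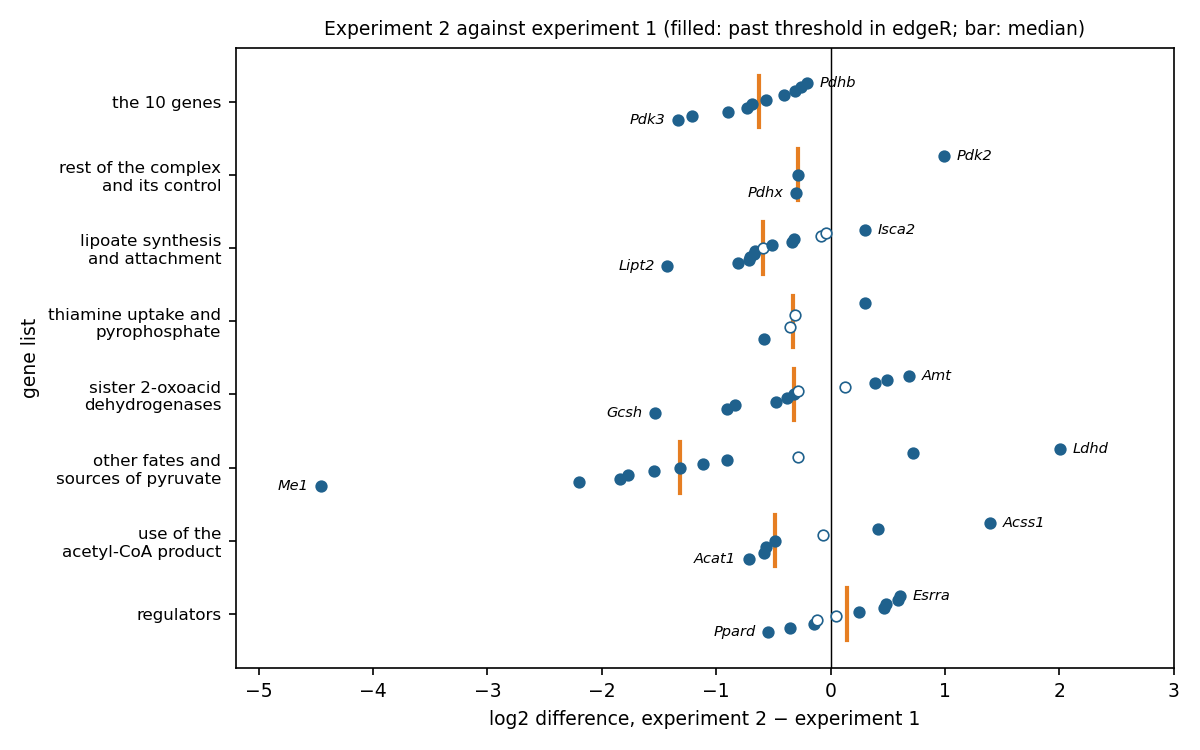
Log2 difference of experiment 2 minus experiment 1 for the 10 genes (top) and for tested genes of 7 related lists, 1 point a gene, filled where past the threshold in edgeR, with the median as an orange bar. All 10 members lie left of 0, between -1.33 (Pdk3) and -0.21 (Pdhb), and the list of other pyruvate genes has the lowest median, -1.32.

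The size of this difference also varied with the guide in some members. For Pdpr it was -0.95 in sgElovl1 cells and -0.44 in sgNT cells, while for Dlat it was -0.71 in sgElovl1 and -1.06 in sgNT cells. For Dld both were close, at -0.57 in sgElovl1 and -0.56 in sgNT cells. Whether the guides differ in this could not be tested, since 4 columns leave no degree of freedom for it.

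**Figure D4:**
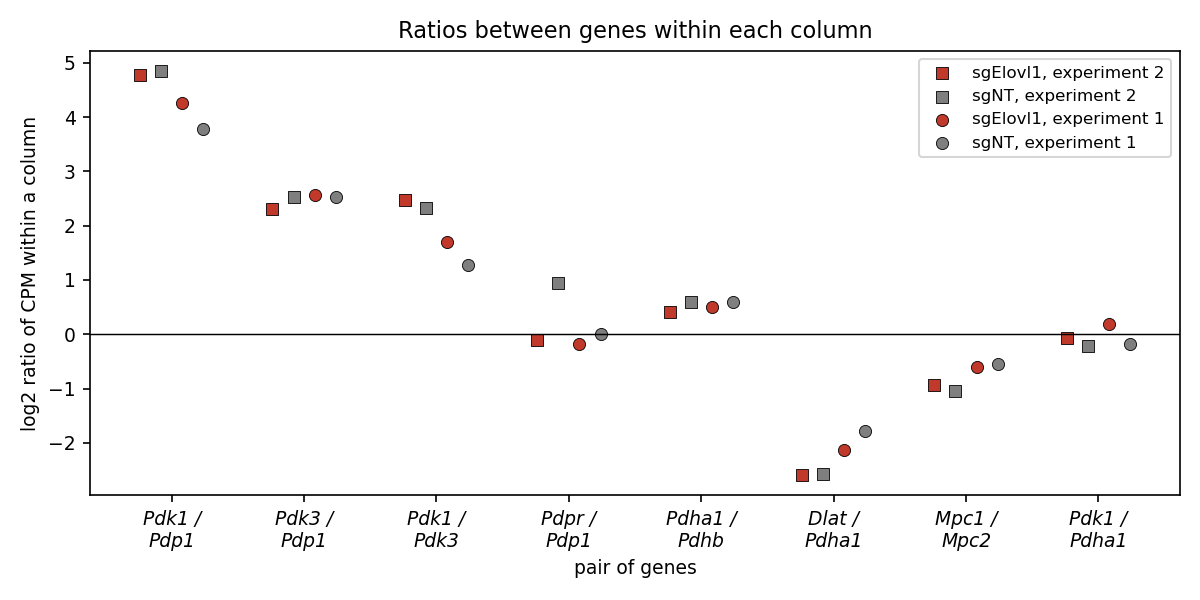
Log2 ratio of CPM between pairs of the 10 genes within each column, sgElovl1 in red and sgNT in grey, experiment 2 as squares and experiment 1 as circles. Pdk1 over Pdk3 is higher in both columns of experiment 2 than in both of experiment 1, and for Pdpr over Pdp1 the sgNT column of experiment 2 (log2 0.94) stands apart from the other 3 (-0.18 to 0.01).

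The rest of the complex and its control went with the members in part. Pdhx, which anchors Dld in the complex, had 12.8 CPM in sgElovl1 and 12.7 CPM in sgNT cells in experiment 2, and 15.4 and 16.2 CPM in experiment 1, a log2 difference between experiments of -0.31 ± 0.11 (SE). Pdp2 was at -0.28 ± 0.10. Pdk2, the widely expressed kinase, went the other way, with 4.76 and 4.50 CPM in experiment 2 (sgElovl1 and sgNT) against 2.57 and 2.10 CPM in experiment 1 (1.00 ± 0.24). All 3 were past the threshold. Pdk4, which fasting induces in muscle, and the testis gene Pdha2 had no count in any column, which allows at most 0.0474 to 0.0601 CPM (3 counts, counting error only), and Mpc1l was not analysed here.

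Across 7 lists of related genes (69 genes, 59 tested), 0 were past the threshold between the guides in edgeR. Of all genes tested, 1.2% were. In edgeR 7 of the 59 had an unadjusted p below 0.05, against 1698 of the 16006 genes tested. DESeq2 also called 0 (1 unadjusted in its Wald test). In the lists other than that of thiamine, the gene with the smallest p was Pdp2 (above), Mecr (fatty acid synthesis in mitochondria, log2 fold change -0.14), Gcsh (a lipoyl carrier of glycine cleavage, -0.17), Me2 (mitochondrial malic enzyme, -0.15), Acly (ATP citrate lyase, -0.13) and Myc (0.18). Between the experiments 33 of the 59 were called lower and 15 higher in experiment 2, 81.4% either way. Among all genes tested 55.6% were called, and among those averaging 5 CPM or more 73.3%. The median of the 59 was -0.34, against -0.07 over genes averaging 5 CPM or more.

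Genes that supply the cofactors and the sister complexes were set beside the 29.2% of genes tested called lower and the 26.4% called higher in experiment 2. Of the 9756 genes averaging 5 CPM or more, as most of these did, 4012 were called lower and 3143 higher. Of 13 tested genes of lipoate synthesis and attachment, 9 were lower and 1 was higher, with a median log2 difference of -0.59. Ndufab1, the acyl carrier protein, stood at -0.81 ± 0.07 (SE) and the lipoyl transferase Lipt2, on 49 counts in experiment 2 against 147 in experiment 1, at -1.43 ± 0.50. Isca2, an iron-sulfur assembly factor, was the exception at 0.30 ± 0.09. Of 4 tested genes of the thiamine list, 1 was lower (Slc19a2, a transporter of the plasma membrane, -0.58) and 1 was higher. Of 11 genes of the sister dehydrogenases and glycine cleavage, 6 were lower, led by Gcsh (-1.53) and the branched-chain kinase Bckdk (-0.90), and 3 were higher, led by Amt (0.69) and the branched-chain subunit Bckdha (0.49).

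Other routes of pyruvate differed most. Of 11 tested genes 8 were lower and 2 higher in experiment 2, with a median log2 difference of -1.32. Of all genes tested, 29.2% were called lower and 26.4% higher, and at 5 CPM or more 73.3% were called either way. Pcx, pyruvate carboxylase, had 5.76 and 5.32 CPM in experiment 2 (sgElovl1 and sgNT) against 23.9 and 27.2 CPM in experiment 1 (-2.20 ± 0.11, SE). Cytosolic malic enzyme Me1 had 2 counts against 53, a ratio of 0.0415 (95% counting interval 0.00490 to 0.158). The alanine transaminase Gpt (0.72 ± 0.14) was higher. Ldhd, a D-lactate dehydrogenase, was called higher too (2.01 ± 0.56), on 92 and 46 counts in experiment 2 (sgElovl1 and sgNT) against 6 and 36 in experiment 1. Its difference was 3.50 in sgElovl1 and 0.66 in sgNT cells, so the value rests on the column with 6 counts.

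Ldha and Pkm, named after their values were seen, are the abundant enzymes upstream and beside this step. Ldha, which makes lactate, had 771 and 792 CPM in experiment 2 against 2138 and 2419.9 CPM in experiment 1 (-1.54 ± 0.08, SE). Pkm, pyruvate kinase, had 960.1 and 988 CPM against 2012 and 2216 CPM (-1.12 ± 0.07). Between the guides Ldha differed by -0.11 and Pkm by -0.09, neither past the threshold.

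Among genes of the use and other supply of acetyl-CoA, 4 of 7 were lower in experiment 2, where 29.2% of genes tested were called lower. Acat1 (acetoacetyl-CoA thiolase) was at -0.72 and Slc25a1 (the citrate carrier) at -0.58. The acetate-activating enzymes Acss1 (1.40) and Acss2 (0.42) were higher. Of 10 regulators 5 were higher, led by Esrra (0.61) and Foxo3 (0.59), and 3 were lower, led by Ppard (-0.55) and Myc (-0.35). That is 80% called, near the 73.3% of genes averaging 5 CPM or more, so nothing is read from it. Myeloid markers summed to 3.86 and 3.40 CPM in experiment 2 against 0.893 and 0.947 CPM in experiment 1. Itgam made up most of it, at 2.69 and 2.28 CPM in experiment 2 against 0.399 and 0.253 CPM in experiment 1. Of the other 4, S100a8 was at 0 in every column, Lyz2 at most 0.0200 CPM, Adgre1 at most 0.162 CPM and Csf1r at most 1.08 CPM.

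The genes closest in pattern were found by Euclidean distance of centred log2 CPM over the 4 columns. The search took 9344 genes averaging at least 5 CPM, without names of Gm and digits, names ending in Rik, and mitochondrial (mt-) genes. Nearest to Pdpr were Elk1 (distance 0.185), Prkci (0.327) and Magi3 (0.327). For Dlat they were Fam174b (0.0877), Med29 (0.103) and Polr2h (0.111). For Pdk1 they were Rad17 (0.0271), Fech (0.0473) and Dglucy (0.0519). The nearest gene was farther from Pdpr than from Dlat or Pdk1. These distances rest on 4 columns and are a description only.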

How the data were processed

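RNA was sequenced from sgElovl1 and sgNT OT-I T cells as stranded mRNA libraries with paired reads. As the methods and processing notes state, the authors mapped reads by STAR 2.7.10b to GRCm39, counted them over whole genes (introns included, reverse strand) with featureCounts 2.0.1 in R 4.3.3, and summed the replicate mice of each experiment. The deposited values are these raw counts, in 4 columns of 56805 symbols. How reads with several alignments were treated, and if pairs count as 1, is not given in the sources used here. Members and gene lists were chosen with earlier results of these data known.

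The main model (edgeR 4.0.16, R 4.3.3) was a quasi-likelihood fit with TMM factors and terms for experiment and guide, over the 16006 genes that filterByExpr keeps, and p-values were adjusted by Benjamini-Hochberg over all genes tested (threshold 0.05). This left 1 residual degree of freedom, and the prior degrees of freedom were infinite. SE and p-values thus rest on a quasi-likelihood spread pooled over genes, and measure the spread between columns, not mice. The common biological coefficient of variation was 6.98%, a separate estimate that is not the spread behind the SE. Values within an experiment are differences of log2 CPM with a prior count of 2. The fit was tested on simulated data.

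Alternatives were DESeq2 size factors, upper-quartile factors, no mitochondrial or top 20 genes in the scaling, no filter, a mean of 5 CPM, DESeq2 1.42.0 (Wald and likelihood-ratio tests), limma-voom (limma 3.58.1), no experiment (or guide) term, each column left out, and removal of the part of the guide difference that follows the difference between experiments (slope 0.0887). The genes named are the 10 members, Elovl1, all of the list on the rest of the complex, the gene of smallest p of every list between guides, and in every list up to 2 genes of largest difference a direction past the threshold between experiments, and the 3 genes nearest in pattern to Pdpr, Dlat and Pdk1. Some genes this rule takes are not reported here. Promoter sequences and exon lengths are RefSeq GRCm38.p6 and GENCODE M21, used with no coordinates of the authors' build.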

Additional observations from a re-analysis of the deposited data

How the results depend on the processing

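No paired analysis was possible because the deposited columns sum the replicate mice, which holds for a block by mouse or replicate number. The experiment term of the main model already sets each sgElovl1 column against the sgNT column of its own experiment. Between the guides, 192 genes passed the threshold (122 higher, 70 lower). With DESeq2 size factors, upper-quartile factors or no mitochondrial and top genes in the scaling, 176 (132 and 44), 239 (182 and 57) and 193 (151 and 42) did. The count moved to 94 (66 and 28) with no filter, 35 (30 and 5) at a mean of 5 CPM, 26 (22 and 4) in the Wald and in the likelihood-ratio test of DESeq2, 72 (49 and 23) with the shift between experiments removed, 0 with no experiment term (19 at an unadjusted p below 0.05), and 0 to 6 with a column left out (0 without the sgElovl1 column of experiment 2, with 235 unadjusted).

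Of the 10 members, 2 passed. Pdpr alone (1) passed with DESeq2 size factors, upper-quartile factors, no mitochondrial or top genes and no filter, and Dlat alone (1) in limma-voom. With the filter at 5 CPM, both DESeq2 tests (where the likelihood-ratio test gave no adjusted p for Pdpr), no experiment term, the shift removed and in every fit that left out a column the number was 0, with 3 members at an unadjusted p below 0.05 at a mean of 5 CPM, 2 in DESeq2, 3 with the shift removed and 0 in the others. The fold change of Pdpr stayed negative throughout, at -0.64 to -0.57, and at -1.14 to -0.17 with a column left out, as did that of Dlat outside fits with a column left out (-0.34 to -0.21). The sign turned for Pdp1 with the shift removed (0.058), for Mpc1 in limma-voom (-0.0045) and with no experiment term (-0.0049), and for Mpc2 with no filter (-0.0011).

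With a column left out the fit has 3 columns and no experiment term, so the guide values take in the difference between experiments. They then ran from -0.75 to 0.29 for Dlat, -0.22 to 0.040 for Pdha1, -0.072 to 0.18 for Pdhb, -0.30 to 0.31 for Dld, -0.71 to 0.75 for Pdp1, -0.094 to 0.43 for Pdk1, -0.93 to 0.70 for Pdk3, -0.34 to 0.48 for Mpc1 and -0.14 to 0.18 for Mpc2. Between the experiments every member stayed lower under every alternative run. Of the members 9 or 10 passed the threshold under these settings, and 7 to 10 with a column left out, fewest without the sgElovl1 column of experiment 2. Upper-quartile scaling moved the median of all genes in this comparison to 0.08 from 0.00 and the split of calls from 4219 higher and 4677 lower to 4860 and 4005. Depth limits Pdpr and Pdp1 most, at 167 to 556 counts a column.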
